A study of Mus musculus with 9 samples.

Results

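The acyl-CoA thioesterases considered here were the 10 genes Acot1, Acot2, Acot3, Acot4, Acot7, Acot8, Acot9, Acot11, Acot12 and Acot13. They were taken by gene symbol, with earlier results of these data known, from the 21950 genes of the mRNA tables of a renal cortex RNA-seq study of diabetic mice. All 10 passed the filter on low values, as did 14537 genes in all. Male C57BL/KsJ mice were used. The control group consisted of lean, nondiabetic db/m littermates, which carry 1 mutated copy of the leptin receptor gene Lepr. The dbdb group consisted of db/db mice, which carry the mutation on both copies and are obese with type 2 diabetes, given a vehicle by gavage. The dbR group consisted of db/db mice given rosiglitazone, an agonist of the nuclear receptor PPAR gamma, at 20 mg/kg/day by gavage for 8 weeks, from 7 weeks of age. The strain name also lists the Dock7m allele, and neither its state in each group nor a vehicle for the control mice was stated in the sources used here. Cortices were taken at 15 weeks of age, with 3 mice in each group and 1 library for each mouse.

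Acyl-CoA thioesterases cut the thioester bond of an acyl-CoA and release a free fatty acid and coenzyme A, which is the reverse of what acyl-CoA synthetases do. The family falls into 2 structural types that arose separately. Type I enzymes (Acot1 to Acot4 here) belong to the alpha/beta hydrolases, and type II enzymes (Acot7, Acot8, Acot9, Acot11, Acot12 and Acot13 here) have the hotdog fold. Members differ in the compartment where they work and in the chain length they prefer, and several type I genes are known targets of PPAR alpha in the liver. The proximal tubule, which makes up most of the renal cortex, uses fatty acids as a main fuel.

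The type I genes lie in 1 cluster on chromosome 12 (GRCm38, 83987861 to 84111349, 123 kb, plus strand), which in GENCODE holds 6 Acot genes in the order Acot2, Acot1, Acot4, Acot3, Acot5 and Acot6. They resemble each other so closely that some reads cannot be placed in 1 gene, so a stretch of their coding sequence is shown. The coding sequences of Acot1 and Acot2 were 95.3% identical over 1236 aligned bases, with an exact stretch of 273 bases. Those of Acot1 and Acot3 were 83.9% identical, and those of Acot3 and Acot4 were 73.8% identical. The 60 coding bases that start at base 241 of the Acot1 coding sequence are given for 5 genes (GRCm38, plus strand), with capitals at each base that differs from Acot1.
Acot1 (chr12:84009750-84009809): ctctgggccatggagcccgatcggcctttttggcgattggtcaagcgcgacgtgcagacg
Acot2 (chr12:83988265-83988324): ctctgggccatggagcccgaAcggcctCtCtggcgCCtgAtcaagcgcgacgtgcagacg
Acot3 (chr12:84053725-84053784): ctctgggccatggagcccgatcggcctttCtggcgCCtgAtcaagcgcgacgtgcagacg
Acot4 (chr12:84038751-84038810): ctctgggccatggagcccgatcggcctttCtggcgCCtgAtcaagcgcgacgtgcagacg
Acot6 (chr12:84101212-84101271): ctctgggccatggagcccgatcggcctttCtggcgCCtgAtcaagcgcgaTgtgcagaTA
In this stretch Acot2 differed from Acot1 at 6 bases, Acot3 and Acot4 at 4 and Acot6 at 7. Of all windows of 150 bases, the read length, in the Acot1 transcript 12.4% also occurred in another gene, mostly in Acot2. The share was 10.2% for Acot2, 11.3% and 21.7% for the Acot3 transcripts and 0 for Acot4. Values of Acot1, Acot2 and Acot3 therefore rest in part on how shared reads were divided. Most shared windows of Acot3 were shared with Gm49366, an overlapping annotated gene that was not analysed here. None of the measured type II transcripts (mean of 0.1 FPKM or more) shared a window of 150 bases. In Acot9 20.2% of the windows of 50 bases also occurred in Acot10, and Acot10 was listed at 0 in all 9 libraries.

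Promoter windows from 250 bases before to 50 bases after the start were taken from RefSeq (GRCm38.p6), where 9 of the 10 genes had an entry. The letters AGGTCA, the half-site that PPARs share with other nuclear receptors, were searched on both strands. They occurred in 4 of 11 windows of these genes (36.4%), against 16.3% of all 32851 windows. The 4 windows belong to 3 genes, Acot4, Acot12 and Acot3, whose overlapping pair of windows counts the same site again. The window of Acot7 (chr4:152185358-152185657) does not cover the start of its main transcript (ENSMUST00000075363, 152178134), so that promoter was not searched. A window of each is shown. Between dbdb and control, Acot3 had the largest rise and Acot12 the largest fall among the 10 genes. Acot4 did not reach an adjusted p under 0.05 in that comparison (below). Acot1, Acot2, Acot7 and Acot9 did reach it, and their windows held no AGGTCA. A link between the half-site and expression was not tested. Capitals mark the half-site, which is read on the minus strand (TGACCT), and all 3 genes are on the plus strand.
Acot3 (chr12:84051894-84052193): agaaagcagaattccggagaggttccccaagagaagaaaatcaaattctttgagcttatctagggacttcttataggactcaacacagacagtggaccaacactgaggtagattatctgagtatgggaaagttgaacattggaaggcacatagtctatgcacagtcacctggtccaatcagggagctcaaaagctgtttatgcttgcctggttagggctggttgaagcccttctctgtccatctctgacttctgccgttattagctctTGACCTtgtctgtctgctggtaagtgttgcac
Acot4 (chr12:84038129-84038428): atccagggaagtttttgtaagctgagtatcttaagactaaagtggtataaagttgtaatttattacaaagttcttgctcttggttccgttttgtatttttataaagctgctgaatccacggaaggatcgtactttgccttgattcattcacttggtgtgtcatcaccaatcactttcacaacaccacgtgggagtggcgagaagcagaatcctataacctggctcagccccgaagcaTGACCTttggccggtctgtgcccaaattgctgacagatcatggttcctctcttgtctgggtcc
Acot12 (chr13:91741271-91741570): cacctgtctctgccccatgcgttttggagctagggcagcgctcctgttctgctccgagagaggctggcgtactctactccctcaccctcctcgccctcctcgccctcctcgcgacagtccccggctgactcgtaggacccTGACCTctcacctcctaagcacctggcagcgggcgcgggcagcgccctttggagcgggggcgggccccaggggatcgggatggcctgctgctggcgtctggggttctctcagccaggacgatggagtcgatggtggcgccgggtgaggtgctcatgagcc
A direct repeat of the half-site in the looser form AGGNCA, N being any base, with 1 base between the copies, was searched in the same way. It can overlap a match to AGGTCA, and it was found in 0 of 11 windows of these genes and in 0.381% of all windows.

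In the files, relative depth ranged from 0.914 to 1.14 with control replicate 1 as 1, and mitochondrially encoded genes held 26.9% to 32.8% of the mRNA FPKM (fragments per kilobase, scaled to library size, and so a level per length). Control replicate 3 stood apart in 10 genes that were more than 8-fold below every other library. None of the 10 thioesterases or of the related genes below was among them. The calls of the 10 genes that were lost without this library are given beside their values. Lepr, the mutated gene, was expressed at 1.19, 1.05 and 1.23 FPKM in control, at 0.652, 0.331 and 0.304 in dbdb and at 0.512, 0.390 and 0.335 in dbR. Every control library was above every db/db library, and Lepr fell by 1.31 on the log2 scale in dbdb vs. control (limma, adjusted p = 0.00430). The labelled tissue was matched by 6 proximal tubule markers, whose summed level was 2568 to 2819 FPKM in control, 2473 to 3099 in dbdb and 2652 to 2816 in dbR. Slc34a1 was the largest term of that sum in every library, and single markers moved in both directions, with 1 of the 6 called higher and 1 lower in dbdb vs. control and 1 lower in dbR vs. control. All 4 white fat and both brown fat markers stayed under 1 FPKM in every library.

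On the FPKM scale the 10 genes spanned a wide range. In control, Acot13, a small thioesterase of mitochondria and cytosol for long-chain acyl-CoAs, was highest at 178 ± 10.5 FPKM (mean ± SD, n = 3 here and below). Acot12, a cytosolic enzyme that hydrolyses acetyl-CoA, followed at 89.3 ± 3.83 FPKM. Acot11 (31.6 ± 1.37) and Acot9 (30.5 ± 4.45) came next, and their ranges overlapped. Acot1 stood at 21.2 ± 2.34 FPKM, apart from both of its neighbours. Acot4 (17.7 ± 1.21), Acot8 (14.9 ± 1.64) and Acot2 (12.5 ± 1.42) each overlapped with the next in order, Acot3 followed at 9.59 ± 1.96, and Acot7 was lowest at 7.00 ± 0.298 FPKM, below every Acot3 value. In dbdb, Acot13 and Acot12 kept the first places, Acot1 came next at 31.4 ± 3.35 FPKM and overlapped with Acot11, and Acot7 stayed lowest at 8.62 ± 0.507. In dbR, Acot3 had moved above Acot4, Acot9, Acot2 and Acot8 to 22.4 ± 0.945 FPKM, with a range that overlapped that of Acot4.

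**Figure D1:**
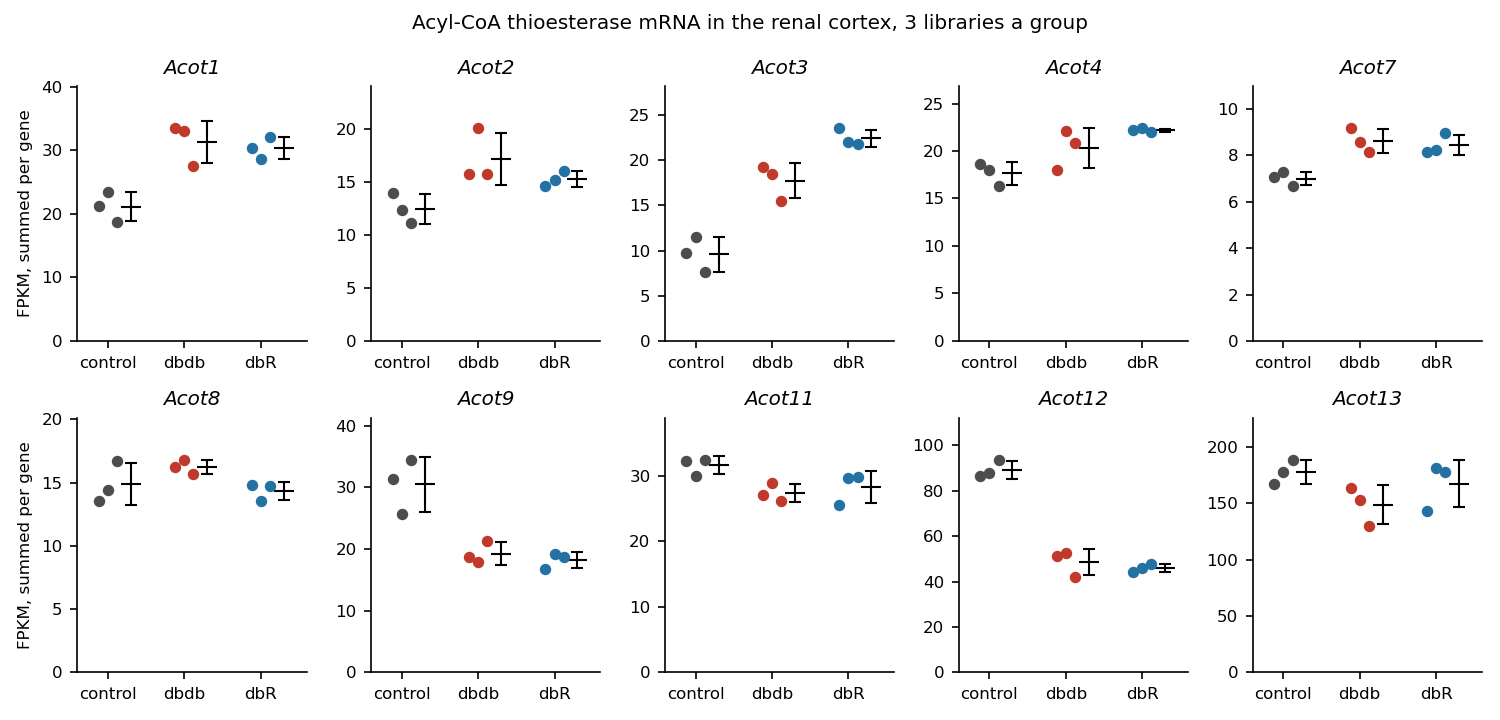
FPKM summed per gene for the 10 acyl-CoA thioesterases (y axis, from 0, one scale per gene), with 1 point per library in the control, dbdb and dbR groups and bars at the mean ± SD (n = 3). All dbdb and dbR libraries lie above the control libraries for Acot1, Acot2, Acot3 and Acot7, and below them for Acot9, Acot11 and Acot12.

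The comparison dbdb vs. control asks which thioesterase mRNAs differ in the diabetic kidney. The type I genes Acot1, Acot2 and Acot3 and the type II gene Acot7 were upregulated, by 1.23-fold to 1.86-fold. The type II genes Acot9 and Acot12 were downregulated, to 0.636 and 0.543 of their control level. Thus 6 of 10 genes were called at an adjusted p under 0.05 (limma on log2(FPKM + 0.1), Benjamini-Hochberg over all genes tested), 4 higher and 2 lower. Of all genes tested 26.4% were called, 13.1% higher and 13.4% lower. At an unadjusted p under 0.05 there were 9 of 10, against 38.8% of all genes. The groups did not overlap for 4 genes that were higher and 4 that were lower in dbdb, where 21.2% of all genes were apart in each direction and 42.4% in either. Folds are on the log2(FPKM + 0.1) scale throughout, which understates the change of low genes.

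**Figure D2:**
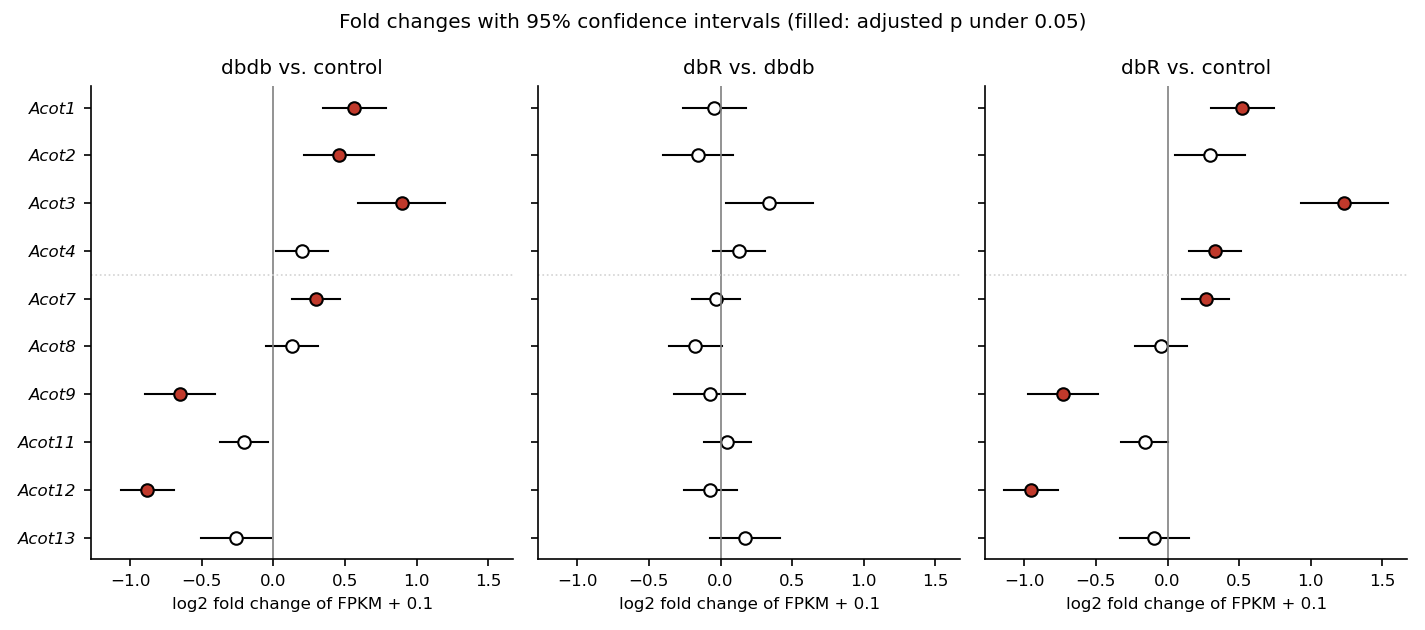
Log2 fold change of FPKM + 0.1 (x axis) with its 95% confidence interval for the 10 genes (y axis, type I above the dotted line and type II below) in the 3 comparisons; filled points were called at an adjusted p under 0.05 over all genes tested. Both comparisons with the control group have 6 filled points, and dbR vs. dbdb has 0, with every point between -0.18 and 0.34.

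Acot3, a peroxisomal enzyme for long-chain acyl-CoAs, had the largest rise of the 10 genes. It was expressed at 9.70, 11.5 and 7.58 FPKM in control and at 19.3, 18.4 and 15.5 in dbdb. The lowest dbdb library was above the highest control library. Acot3 rose by 0.89 ± 0.14 (SE) on the log2 scale, or 1.86-fold (adjusted p = 0.00128).

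Acot1, the cytosolic long-chain enzyme, was expressed at 21.3, 23.4 and 18.8 FPKM in control and at 33.5, 33.1 and 27.5 in dbdb. The groups did not overlap, and Acot1 rose by 0.56 ± 0.10 on the log2 scale, or 1.48-fold (adjusted p = 0.00281). Acot2, its close relative in the mitochondrial matrix, was expressed at 13.9, 12.3 and 11.1 FPKM in control and at 15.7, 20.1 and 15.7 in dbdb. Its highest value was in dbdb replicate 2, and the other dbdb libraries were also above all control libraries. Acot2 rose by 0.46 ± 0.11 on the log2 scale, or 1.37-fold (adjusted p = 0.0134). Since these 2 genes share reads, their summed level was also taken, and it was 35.2, 35.8 and 29.9 FPKM in control against 49.2, 53.2 and 43.2 in dbdb.

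Acot4, a peroxisomal enzyme that acts on succinyl-CoA and other dicarboxylic acyl-CoAs, was expressed at 18.6, 18.0 and 16.3 FPKM in control and at 18.1, 22.1 and 20.9 in dbdb. Dbdb replicate 1 lay within the control range. The log2 fold change was 0.20 with a 95% interval of 0.02 to 0.38 (adjusted p = 0.0986), and with 1 library left out it ranged from 0.14 without dbdb replicate 2 (adjusted p = 0.291) to 0.28 without dbdb replicate 1 (adjusted p = 0.0245). Under a scaling without mitochondrial genes it was 0.36, and Acot4 was called. Acot6, the cluster gene next in level, was expressed at 3.80 to 5.10 FPKM in control and at 4.66 to 5.57 in dbdb (log2 fold change 0.13, adjusted p = 0.469), and Acot5 stayed at or under 0.155 FPKM in every library.

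An annotated lncRNA of the cluster, 4732463B04Rik (ENSMUST00000180751, chromosome 12, 84039469 to 84053807, minus strand), runs antisense to Acot4 and the start of Acot3. Its exons share 615 bases with those of Acot4 and 312 with those of Acot3. It was expressed at 6.17, 5.97 and 4.26 FPKM in control, at 8.15, 8.36 and 7.85 in dbdb and at 9.24, 8.22 and 7.92 in dbR. Each library of a db/db mouse was above each control library. In a fit on single transcripts it rose by 0.58 ± 0.14 on the log2 scale in dbdb vs. control (adjusted p = 0.0342), where 9.23% of 31858 transcripts were called, and by 0.64 ± 0.14 in dbR vs. control (adjusted p = 0.0262), where 8.3% were. In dbR vs. dbdb its log2 fold change was 0.06 (95% interval -0.26 to 0.37). The libraries kept strand, but whether FPKM was computed by strand was not stated in the sources used here. Without it, reads of the shared bases cannot be told apart between the lncRNA and the Acot genes.

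**Figure D3:**
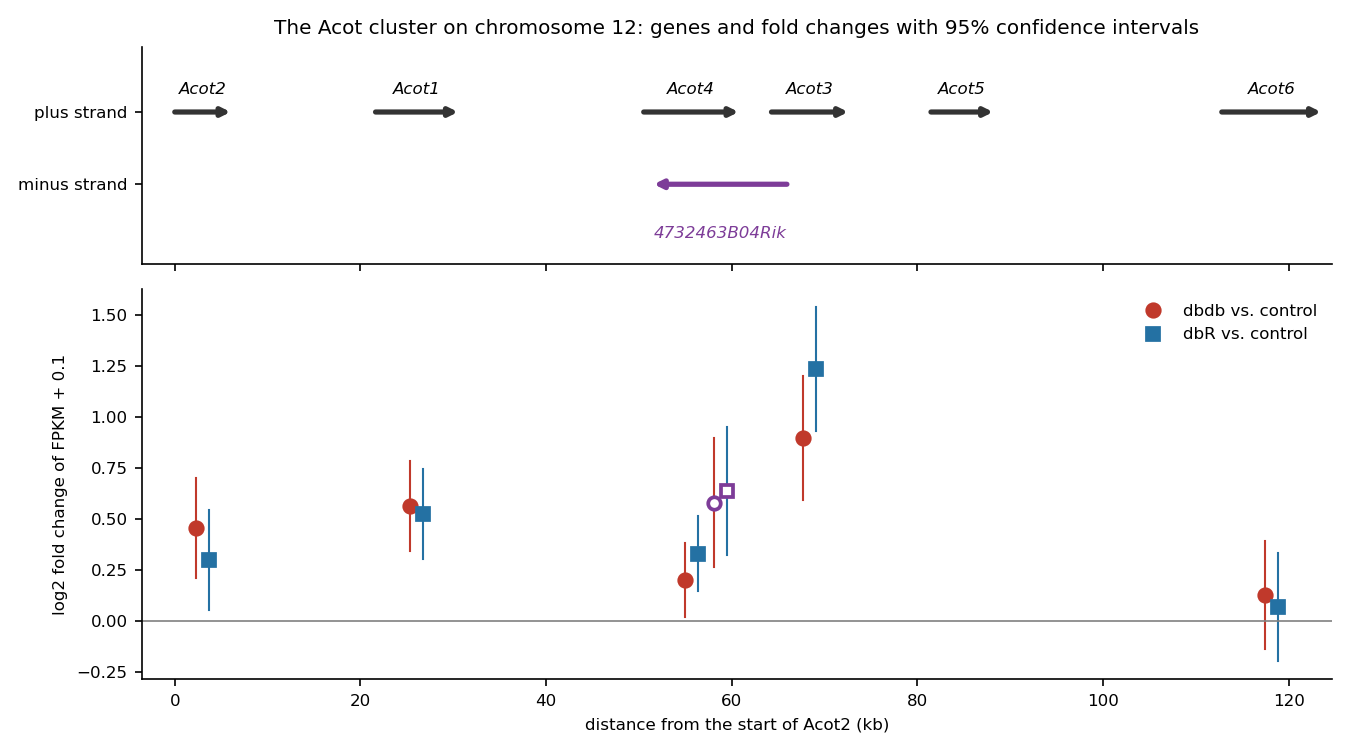
The Acot cluster by distance from the start of Acot2 (x axis, kb): above, the extent and direction of the genes and of the lncRNA 4732463B04Rik, and below, log2 fold changes of FPKM + 0.1 with 95% intervals in dbdb vs. control (circles) and dbR vs. control (squares), each at the middle of its gene, with open symbols for the lncRNA and Acot5 left out as too low. Acot3 has the largest fold change in both comparisons (0.89 and 1.24), and the points of Acot6 are at 0.13 and 0.07.

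Acot12 had the largest fall of the 10 genes. It was expressed at 86.3, 87.8 and 93.6 FPKM in control and at 51.3, 52.5 and 42.0 in dbdb. The highest dbdb library was far below the lowest control library. Acot12 fell by 0.88 on the log2 scale (SE 0.08, adjusted p = 9.78e-05), to 0.543 of its control level. Its share of the summed FPKM of the 10 genes was 21.7% ± 0.263 in control and 13.7% ± 0.577 in dbdb. In dbR the share was 12.9%, 11.9% and 12.3%, below every dbdb library (lowest 13.02%). The sum itself averaged 355 FPKM in dbdb and 373 in dbR, with Acot13 at 148.7 and 167.5, and Acot12 overlapped between these groups. In an exact two-sided permutation test on the share each pair of groups gave p = 0.1, the smallest that 3 against 3 allows.

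Acot9, a mitochondrial thioesterase, was expressed at 31.4, 25.7 and 34.5 FPKM in control and at 18.7, 17.8 and 21.3 in dbdb. Control replicate 2 was the lowest of its group and still above all dbdb libraries. Acot9 fell by 0.65 on the log2 scale (SE 0.11, adjusted p = 0.00231). Acot7, a cytosolic long-chain enzyme best known from brain, moved the other way. It was expressed at 7.06, 7.26 and 6.67 FPKM in control and at 9.16, 8.55 and 8.15 in dbdb, with no overlap. Acot7 rose by 0.30 ± 0.07 on the log2 scale (adjusted p = 0.0164), and the adjusted p was 0.0576 without control replicate 3 and 0.0568 without dbdb replicate 1. In the fit on single transcripts its main transcript (ENSMUST00000075363) was not called (log2 fold change 0.26, adjusted p = 0.121).

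The other 3 type II genes were not called. Acot11, a cytosolic enzyme with a lipid-binding START domain, was expressed at 32.3, 30.0 and 32.4 FPKM in control and at 27.1, 28.9 and 26.1 in dbdb. The groups did not overlap, and the log2 fold change was -0.21 with a 95% interval of -0.37 to -0.04 (adjusted p = 0.0649). It was called without dbR replicate 1, which changes only the estimate of the spread (adjusted p = 0.0334), and under the scaling without mitochondrial genes its log2 fold change was -0.05 (adjusted p = 0.568). Acot13 was expressed at 167, 177 and 188 FPKM in control and at 164, 153 and 130 in dbdb, with a log2 fold change of -0.26 (95% interval -0.50 to -0.02, adjusted p = 0.102). It was -0.17 without dbdb replicate 3 (adjusted p = 0.290) and -0.10 under the scaling without mitochondrial genes (adjusted p = 0.339). Acot8, a peroxisomal enzyme of broad chain length, was expressed at 13.5, 14.4 and 16.7 FPKM in control and at 16.2, 16.8 and 15.7 in dbdb. These groups overlapped, with a log2 fold change of 0.13 (95% interval -0.05 to 0.31, adjusted p = 0.275), and with 1 library left out it ranged from 0.06 without control replicate 1 (adjusted p = 0.622) to 0.22 without control replicate 3 (adjusted p = 0.0677). Under the scaling without mitochondrial genes Acot8 was called (0.29, adjusted p = 0.0267).

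By type, 3 of 4 type I genes were called higher and 0 lower in dbdb vs. control, with a median log2 fold change of 0.51. Of the 6 type II genes 1 was called higher and 2 lower, with a median of -0.23. Of all genes tested 13.1% were called higher and 13.4% lower, and their median was -0.003. The difference between the types was not tested. The summed level of the type I genes was 63.6, 65.3 and 53.8 FPKM in control, 86.5, 93.8 and 79.6 in dbdb and 90.7, 88.1 and 92.0 in dbR. The sum of the type II genes, dominated by Acot13, was 338, 343 and 372 FPKM in control, 286, 277 and 243 in dbdb and 253, 298 and 298 in dbR. The ratio of Acot1 to Acot12 within a library, which a single scaling factor per library leaves as it is, was chosen after the values were seen. It was 0.247, 0.267 and 0.200 in control, 0.652, 0.631 and 0.654 in dbdb and 0.685, 0.622 and 0.670 in dbR.

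The comparison dbR vs. dbdb asks what rosiglitazone changed in db/db mice, and 0 of 10 thioesterase genes were called. Of all genes tested 0.743% were called by limma, that is 108 genes, and this number was 2 without dbR replicate 2, 10 without dbR replicate 3, 31 without dbdb replicate 2, 36 without dbdb replicate 1 and 70 without dbR replicate 1. At an unadjusted p under 0.05 there was 1 of 10, against 17.5% of all genes. That gene was Acot3, which was expressed at 23.5, 22.0 and 21.8 FPKM in dbR. All dbR libraries were above all dbdb libraries, and the log2 fold change was 0.34 with a 95% interval of 0.04 to 0.65 (adjusted p = 0.234). Acot8 was lower in every dbR library than in any dbdb library, at 14.8, 13.5 and 14.7 FPKM, with a log2 fold change of -0.18 (95% interval -0.36 to 0.01, adjusted p = 0.307). Non-overlap of either direction was seen in 22.7% of all genes.

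For the other genes that had changed in dbdb vs. control, the ranges of dbR and dbdb overlapped. Acot12 was expressed at 44.3, 46.0 and 47.9 FPKM in dbR, within the dbdb range, and the log2 fold change against dbdb was -0.07 (95% interval -0.26 to 0.12). Acot9 was at 16.8, 19.2 and 18.7 FPKM, and its log2 fold change was -0.08 (95% interval -0.32 to 0.17). Acot1 was at 30.4, 28.6 and 32.1 FPKM in dbR, with a log2 fold change of -0.04 (95% interval -0.26 to 0.18). Acot2 was at 14.6, 15.2 and 16.1 FPKM, with dbR replicates 1 and 2 below every dbdb library. Its log2 fold change was -0.16 (95% interval -0.40 to 0.09). Acot7 was at 8.14, 8.22 and 8.95 FPKM, with a log2 fold change of -0.03 (95% interval -0.20 to 0.14). Among the genes not called in dbdb vs. control, the log2 fold changes against dbdb were 0.13 for Acot4 (95% interval -0.05 to 0.31), 0.17 for Acot13 (-0.07 to 0.41) and 0.05 for Acot11 (-0.12 to 0.21), the last of which was -0.0165 under the scaling without mitochondrial genes. Single libraries set the size of several of these values. Acot2 was at -0.04 without dbdb replicate 2, Acot12 at -0.01 without dbdb replicate 2 and -0.17 without dbdb replicate 3, and Acot9 at -0.0001 without dbdb replicate 3 and -0.13 without dbdb replicate 2. Acot4 was at 0.05 without dbdb replicate 1, and Acot13 at 0.08 without dbdb replicate 3 and 0.28 without dbR replicate 1. Acot11 was at 0.008 without dbR replicate 3 and 0.12 without dbR replicate 1. Apart from that of Acot3, none of the intervals from all libraries excluded 0, and they do not show that the groups were alike.

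In dbR vs. control 6 of 10 genes were called, 4 higher and 2 lower, against 24.1% of all genes (12.3% higher and 11.8% lower). At an unadjusted p under 0.05 there were 7, against 36.8% of all genes. The groups were apart for 5 genes that were higher and 3 that were lower in dbR, where 41.9% of all genes were apart, 20.8% higher and 21.1% lower. This comparison shares its control libraries with dbdb vs. control, and the values are set side by side. Acot3 rose by 1.24 ± 0.14 on the log2 scale (2.36-fold, adjusted p = 0.000243), where it had risen by 0.89 in dbdb. Acot1 rose by 0.52 ± 0.10 (adjusted p = 0.00447) and Acot7 by 0.27 ± 0.07 (adjusted p = 0.0277). The call of Acot7 was lost without control replicate 1 (adjusted p = 0.0594), control replicate 3 (0.0905), dbR replicate 2 (0.0529) or dbR replicate 3 (0.0978). It was also lost with the replicate number as a block, and for the main Acot7 transcript in the single-transcript fit (0.26, adjusted p = 0.1365). Acot4, at 22.2, 22.4 and 22.0 FPKM in dbR, was above all control libraries and rose by 0.33 ± 0.08 (adjusted p = 0.0164), and without control replicate 3 the adjusted p was 0.0588. Acot9 fell by 0.73 (adjusted p = 0.00136) and Acot12 fell by 0.95 (adjusted p = 6.89e-05). Acot2 had a log2 fold change of 0.30 (95% interval 0.05 to 0.54, adjusted p = 0.0755) and was not called, although the groups did not overlap. It was called without control replicate 1 (0.38, adjusted p = 0.0459) or dbdb replicate 2 (0.30, adjusted p = 0.0382), the latter changing only the estimate of the spread. Acot11, at 25.5, 29.6 and 29.8 FPKM in dbR, had a log2 fold change of -0.16 (adjusted p = 0.148), and -0.09 without dbR replicate 1. Acot13, at 143, 181 and 178 FPKM, and Acot8 were near their control levels, with log2 fold changes of -0.09 and -0.05, and both were above 0 under the scaling without mitochondrial genes (0.003 and 0.05).

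The 10 genes had 18 mRNA transcripts in the files, of which 14 reached a mean of 0.1 FPKM. The Acot7 sum includes a minor transcript (ENSMUST00000167926, mean 0.404 FPKM) that was near 0 in control replicate 2 and dbR replicate 1. Acot3 had a pair of transcripts with starts 7 bases apart. The shorter one (ENSMUST00000120927, 1854 bases) was at 6.06, 8.17 and 4.81 FPKM in control and at 11.6, 10.4 and 9.40 in dbdb. The longer one (ENSMUST00000021653, 3431 bases) was at 3.64, 3.33 and 2.77 FPKM in control and at 7.63, 8.04 and 6.13 in dbdb. Both rose in dbdb vs. control, by 0.74 (adjusted p = 0.0378) and by 1.14 (adjusted p = 0.00954) on the log2 scale.

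The transcripts of Acot11 moved apart in dbdb vs. control. The main one (ENSMUST00000065253), which starts at 106804998 on the minus strand of chromosome 4, was at 29.2, 27.0 and 29.4 FPKM in control, 23.1, 23.4 and 21.9 in dbdb and 21.3, 25.8 and 25.9 in dbR. It fell by 0.32 on the log2 scale in dbdb vs. control (SE 0.08, adjusted p = 0.0465). A minor one (ENSMUST00000102762), which starts at 106799846 and ends farther downstream, was at 3.10, 3.02 and 2.99 FPKM in control, 4.001, 5.42 and 4.19 in dbdb and 4.198, 3.81 and 3.96 in dbR. It rose by 0.55 ± 0.12 in dbdb vs. control (adjusted p = 0.0279). Its share of the Acot11 FPKM was 9.23% to 10.1% in control, 14.8% to 18.8% in dbdb and 12.9% to 16.4% in dbR. In dbR vs. control neither was called, with log2 fold changes of -0.23 for the main one (adjusted p = 0.133) and 0.38 for the minor one (adjusted p = 0.105). In dbR vs. dbdb neither was called (adjusted p = 0.774 and 0.695), where 0.0126% of the transcripts were called. Cufflinks divided the reads between these transcripts, so the values depend on that division.

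**Figure D4:**
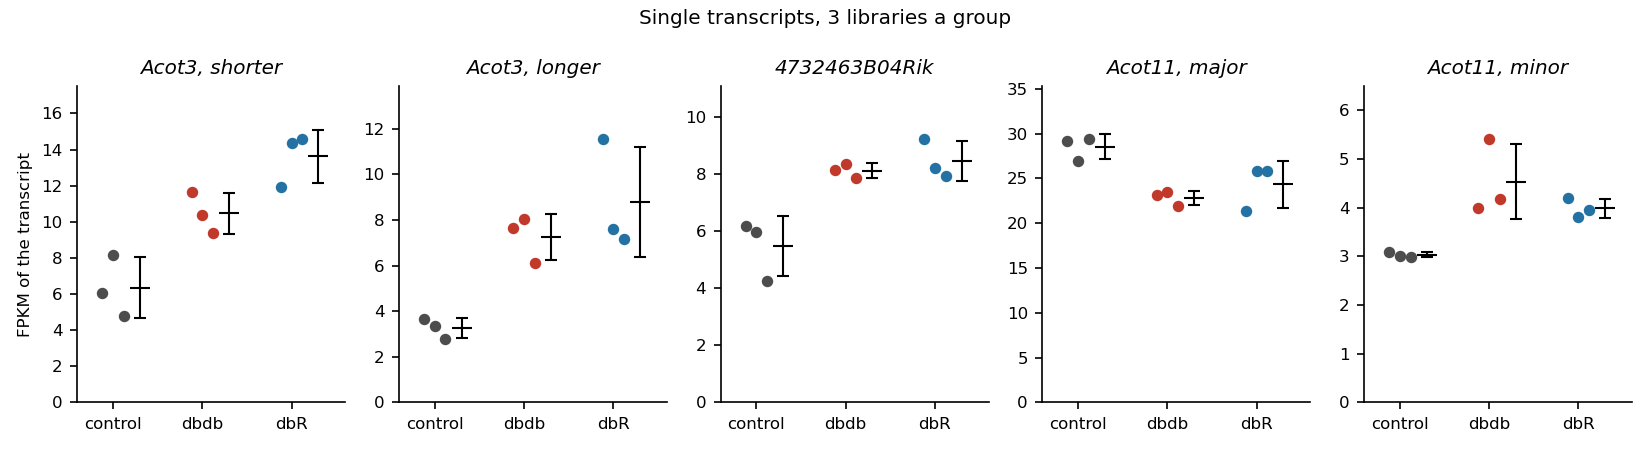
FPKM of single transcripts (y axis, from 0, one scale per transcript), with 1 point per library in the control, dbdb and dbR groups and bars at the mean ± SD (n = 3). Both Acot3 transcripts and 4732463B04Rik are higher in all db/db libraries than in control, the main Acot11 transcript is lower in all of them, and the minor Acot11 transcript is higher.

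Of the other lncRNAs within 100 kb of these genes, 4833422C13Rik lies head to head with Acot12 and shares 149 exon bases with it on the opposite strand. Its 3 transcripts had means of 0.600 to 1.28 FPKM, and none of them was called in any comparison. 4932702P03Rik, 74.1 kb from Acot13, was expressed at 0.203, 0.185 and 0.146 FPKM in control and at 0.418, 0.309 and 0.440 in dbdb (log2 fold change 0.81, adjusted p = 0.139). Gm22596, 30.8 kb from Acot8, was listed at 0 in 4 of the 9 libraries.

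Genes around the thioesterases were taken from 4 lists written by hand, and the same fit was used. The counts of each list stand beside the share of all genes tested, which was 26.4% called in dbdb vs. control, 13.1% higher and 13.4% lower. Among 7 other thioesterases tested, 1 was called higher and 2 lower in dbdb vs. control (42.9%). Them6, a thioesterase superfamily member, rose 2.00-fold (5.83 to 11.7 FPKM, adjusted p = 0.000241). Ppt2 and Ppt1, lysosomal thioesterases, fell by 0.54 (adjusted p = 0.00202) and by 0.25 (adjusted p = 0.0152) on the log2 scale. In dbR vs. control, Baat, the bile acid conjugating enzyme of the same hydrolase family as type I, also rose, by 0.85 (1.05 to 1.96 FPKM, adjusted p = 0.0449).

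Acyl-CoA synthetases, which make the substrates of the thioesterases, were called in both directions, 6 higher and 5 lower of 20 tested in dbdb vs. control (55.0%, against 26.4% of all genes). Acsm3, a mitochondrial medium-chain synthetase, fell by 3.88 on the log2 scale, from 164 ± 72.8 to 10.4 ± 1.21 FPKM (adjusted p = 1.03e-05). Acsm2 fell by 0.99, from 2925 to 1460 FPKM (adjusted p = 0.000228). Acsf2 rose 2.65-fold, from 4.33 to 11.8 FPKM (adjusted p = 0.000174). Of 24 genes of CoA synthesis, CoA hydrolysis and acyl-CoA binding, 0 were called higher and 8 lower in dbdb vs. control (33.3%, against 26.4% of all genes in either direction and 13.4% lower). Without control replicate 3 there were 6. Pank1, a pantothenate kinase that starts CoA synthesis, fell by 1.001 (147 to 73.1 FPKM, adjusted p = 0.000198). Coasy, which completes it, fell by 0.80 (adjusted p = 0.000153), and Nudt19, a peroxisomal CoA diphosphatase known from kidney, fell by 0.69 (adjusted p = 0.00150). The list's median log2 fold change was -0.17, against -0.003 for all genes.

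Of 38 genes tested from the list of PPAR alpha targets of fatty acid use, 16 were called higher and 8 lower in dbdb vs. control. This was 63.2%, against 26.4% of all genes, with a median log2 fold change of 0.08. Being on this list does not show which receptor acts on a gene. Leaving out 1 library gave 20 to 25 called genes, with 21 without control replicate 3. Cyp4a14, a fatty acid omega-hydroxylase, rose 27.6-fold, from 5.55 to 156 FPKM (adjusted p = 1.33e-07). Cd36, a fatty acid carrier at the cell surface, fell by 2.76 on the log2 scale, from 255 to 36.7 FPKM (adjusted p = 1.84e-05). In dbR vs. dbdb 2 of these 38 genes were called, against 0.743% of all genes, with Fabp4, an adipocyte and endothelial fatty acid binding protein, higher (0.82, adjusted p = 0.0450) and Pdk4, a kinase that inhibits pyruvate dehydrogenase, lower (fell by 0.98, adjusted p = 0.0254). Beside Fabp4, 2 of 4 endothelial markers were called higher in the same comparison, with sums of 63.3 to 69.1 FPKM in dbdb and 90.3 to 108 in dbR, and their part in its value was not tested. These calls did not hold: 0 of the 38 were called without dbR replicate 1, dbR replicate 2 or dbR replicate 3, and 1 was called without control replicate 2, dbdb replicate 1 or dbdb replicate 2. In that comparison limma called 0 genes of the other 3 lists, with 3 of 7 other thioesterases, 3 of 20 synthetases and 10 of 24 CoA genes at an unadjusted p under 0.05, against 17.5% of all genes. Of the PPAR alpha list 15 of 38 genes were under 0.05 unadjusted, and the median log2 fold change of the list was -0.15, against -0.002 for all genes. Of the synthetases 1 was called without dbdb replicate 2, and of the CoA genes 1 without dbdb replicate 1. In dbR vs. control the called genes were 2 higher and 2 lower of 7 other thioesterases, 5 and 5 of 20 synthetases, and 0 and 8 of 24 CoA genes. Of the 38 genes of the PPAR alpha list 10 were called higher and 10 lower. Of all genes 12.3% were called higher and 11.8% lower. The 4 other thioesterases became 2 without control replicate 2, control replicate 3 or dbR replicate 1.

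**Figure D5:**
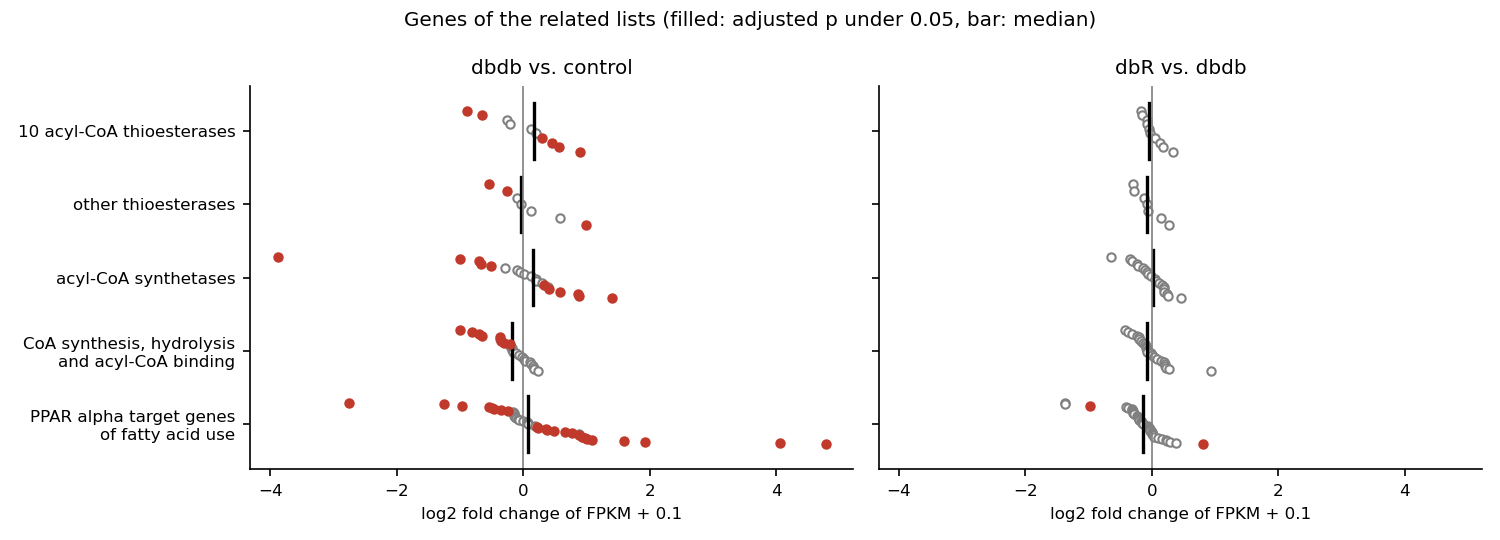
Log2 fold change of FPKM + 0.1 (x axis) of each tested gene in the 10 acyl-CoA thioesterases and 4 related lists (rows) for dbdb against control and dbR against dbdb; filled points were called at an adjusted p under 0.05 and black bars are medians. In dbR vs. dbdb the only filled points are Pdk4 and Fabp4, both from the hand-written PPAR alpha list, and neither call stood without any 1 of the dbR libraries.

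For each thioesterase gene called in a comparison, the genes with the most similar pattern over the 9 libraries were taken from 11605 genes by the root mean square difference of centred log2 values. For Acot3 these were Trf (0.13), Hacl1 (0.14) and Stab2 (0.14). Hacl1, a peroxisomal lyase of fatty acid alpha-oxidation, was expressed at 21.9, 47.5 and 49.1 FPKM on average in control, dbdb and dbR. For Acot12 the nearest were Zfp641 (0.08), Znrf2 (0.08) and Lap3 (0.09), and for Acot9 they were Derl2 (0.07), Med28 (0.09) and Slc33a1 (0.09), the acetyl-CoA transporter of the endoplasmic reticulum, at 51.9, 33.9 and 29.2 FPKM on average. Acot1 was nearest to Tmem86b, Ftcd and Man2a1 (0.06 to 0.08), and Acot2 to D8Ertd82e, Trp53bp2 and Unk (0.07 to 0.08). Acot4 was nearest to Lrig3, Atp8a1 and Srebf2 (0.03 to 0.05) and Acot7 to Smtn, Peli2 and Cdkn2aipnl (0.03 to 0.05). These values are descriptions, since many genes share the difference between groups.

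In whole cortex, fewer cells of a type and less RNA per cell cannot be told apart. Beside the thioesterase changes, both distal convoluted tubule markers were called higher in dbdb vs. control, with a summed level of 154 to 173 FPKM in control, 281 to 308 in dbdb and 315 to 355 in dbR. Of 3 collecting duct markers 2 were called higher, with sums of 81.8 to 102 FPKM in control and 117 to 203 in dbdb. All 4 endothelial markers were called lower in dbdb vs. control, with sums of 90.0 to 98.7 FPKM in control, 63.3 to 69.1 in dbdb and 90.3 to 108 in dbR. Of 4 macrophage markers 2 were called lower, with sums of 30.8 to 36.4 FPKM in control and 16.2 to 30.1 in dbdb. Of 3 podocyte markers 2 were called higher in each comparison with the control group, with sums of 60.8 to 70.2 FPKM in control, 72.9 to 76.6 in dbdb and 65.3 to 80.7 in dbR. Of the proximal tubule markers Slc22a6, an organic anion transporter, was at 262, 274 and 282 FPKM in control, 174, 204 and 170 in dbdb and 162, 169.5 and 179.5 in dbR, and Slc5a2, a glucose transporter, was at 233, 198 and 204 in control and 299, 316 and 240 in dbdb. In dbR vs. dbdb 1 of the 3 collecting duct markers was called higher, beside the endothelial markers given above. In dbR vs. control 2 of the 3 collecting duct and 1 of the 2 thick ascending limb markers were called higher. Of 3 hepatocyte markers 1 was called higher in each comparison with the control group, and Alb, which encodes albumin, was at 4.90, 4.81 and 5.18 FPKM in control, 10.2, 11.3 and 6.80 in dbdb and 13.9, 17.4 and 14.5 in dbR. Red blood cell markers were called in no comparison, although their sum ranged from 5.05 to 69.6 FPKM in control. The part of these cell types in the thioesterase values was not tested.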

How the data were processed

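FPKM was measured in rRNA-depleted, strand-specific RNA-seq libraries of 9 renal cortices. The authors aligned reads to GRCm38.p2 with TopHat2 2.0.9, assembled transcripts with Scripture and Cufflinks 2.1.1 and deposited the Cufflinks FPKM of each mRNA, annotated lncRNA and assembled lncRNA transcript. FPKM holds no read counts, so relative depth was taken from the steps of low values.

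FPKM was summed per gene over mRNA transcripts. Genes with a mean of at least 0.1 FPKM were tested on log2(FPKM + 0.1) with limma 3.58.1 (R 4.3.3), 3 groups in 1 model with a variance trend, two-sided, with Benjamini-Hochberg adjustment over all 14537 genes in each comparison and calls at 0.05. The dbR vs. control comparison was added to those of the study. The fit was tested on simulated data. Transcripts were fitted likewise, mRNA and lncRNA together. Positions came from GENCODE for GRCm38. Alignments used biopython 1.88, other calculations python 3.11.15 with numpy 2.4.6 and pandas 2.3.3, and figures matplotlib 3.10.9.

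The genes and lists were chosen with earlier results of these data known. Named were the 10 genes, Lepr, at most the 3 called genes with the largest change per list and comparison, the 3 genes most like each called member (mean FPKM of at least 1), lncRNAs within 100 kb with a mean of at least 0.1 FPKM, and markers. A gene of the PPAR alpha list that this rule would name is counted with its list but its values are not reported here. Alternatives were other pseudocounts, filters and scalings, a fit to 6 libraries, leaving out each library, a replicate block, no variance trend and single transcripts.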

Additional observations from a re-analysis of the deposited data

How the results depend on the processing

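The calls of Acot1, Acot2, Acot3, Acot9 and Acot12 in dbdb vs. control, and of Acot1, Acot3, Acot9 and Acot12 in dbR vs. control, held their direction and stayed past the threshold under all 20 alternatives run for each. In dbdb vs. control Acot12 ranged from -0.94 to -0.72, Acot3 from 0.74 to 1.05 and Acot2 from 0.34 to 0.61, with adjusted p up to 0.0486 for Acot2. Acot7 was called under 17 of 20 alternatives in dbdb vs. control and 14 of 20 in dbR vs. control, and Acot2 under 5 of 20 in dbR vs. control. No thioesterase gene was called in dbR vs. dbdb under any alternative. Leaving out 1 library gave 5 to 7 called thioesterase genes in dbdb vs. control, 4 to 7 in dbR vs. control and 2 to 141 of all genes in dbR vs. dbdb (36 without dbdb replicate 1, 31 without dbdb replicate 2, 70 without dbR replicate 1, 2 without dbR replicate 2 and 10 without dbR replicate 3).

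The 108 genes called in dbR vs. dbdb became 31 with no filter, 166 with a mean FPKM of at least 1, 203 with scaling to the 75th percentile, 234 with quantile normalization, 22 with only the 6 libraries, 18 without a variance trend and 4 single transcripts, and the cause was not tested. Scaling without mitochondrial genes moved the median of all genes to 0.15 in dbdb vs. control and the share of calls that were higher from 49.5% to 78.3%. The share moved from 75.9% to 48.6% in dbR vs. dbdb and from 51.1% to 70.5% in dbR vs. control, where the 75th percentile gave 62.3%. Under that scaling Acot8 (0.29, adjusted p = 0.0267) and Acot4 (0.36, adjusted p = 0.0246) were also called in dbdb vs. control, and the log2 fold changes of Acot11 (-0.05, adjusted p = 0.568) and Acot13 (-0.10, adjusted p = 0.339) were smaller.

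Some log2 fold changes that were not called turned sign. In dbR vs. dbdb this was so for Acot11 (-0.0165 without mitochondrial genes), and with 1 library left out Acot7 ranged from -0.0728 to 0.0138 and Acot1 from -0.135 to 0.00663, the highest value of both without dbdb replicate 1. In dbR vs. control Acot8 was at 0.00370 with the 75th percentile, at 0.0486 without mitochondrial genes and from -0.111 to 0.0400 (highest without control replicate 3) with 1 library left out. Acot13 was at 0.00296 without mitochondrial genes and from -0.153 to 0.0167 (highest without dbR replicate 1) with 1 library left out.

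The groups share replicate numbers 1 to 3. Deviations of same-numbered libraries correlated at -0.17 to 0.06 over 9 pairs, so the numbers were not taken to pair mice. With the replicate block 23 genes were called in dbR vs. dbdb, and Acot7 in dbR vs. control had an adjusted p of 0.0563. The other thioesterase calls stood under the block. FPKM without counts gives no counting interval, so the precision of low genes such as Lepr is known only from the spread between libraries.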
